A study of Mus musculus with 6 samples.

Results

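The genes described here are *Lif*, *Lifr*, *Il6st*, *Jak1*, *Jak2*, *Stat3*, *Socs2*, *Socs3* and *Pim1*, which encode a cytokine, its receptor chains, the kinases and transcription factor behind them, and 3 genes that this pathway is known to induce. They were chosen by name, are 9 of the 54715 genes in the deposited count table, and all 9 had enough counts to be tested. RNA-Seq libraries of 3 replicates of wild type (WT) ASCs and 3 replicates of *Bdh2*-knockout (*Bdh2*-/-) ASCs were compared. ASCs are mouse embryonic stem cells held in an advanced pluripotent state, and the line came from a female 129/sv mouse mated with a GOF/GFP male, whose transgene is an Oct4-driven GFP reporter. Both genotypes were grown in the same medium with LIF (leukemia inhibitory factor), activin A, BMP4 and CHIR99021, so every library comes from cells given LIF, and there was no LIF-free control. The knockout was made with CRISPR/Cas9 and a pair of sgRNAs, and the study took forward cells with a bi-allelic frameshift deletion, so the 3 knockout replicates may be 1 clone. The labels do not say that replicates were separate cultures, and p-values measure only the spread between these samples, which may be technical.

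LIF binds the LIF receptor, encoded by *Lifr*, which pairs with gp130, the shared signalling chain of this cytokine family encoded by *Il6st*. The paired chains activate Janus kinases bound to them, the kinases phosphorylate STAT3, and STAT3 enters the nucleus and switches on genes, among them *Socs3*, whose protein binds gp130 and the kinases and shuts the signal down. In mouse embryonic stem cells LIF and STAT3 are known for sustaining self-renewal. Transcript counts do not measure phosphorylation, so the activity of the pathway itself was not read here.

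The deposited counts totalled between 18927748 and 28333541 per library, and levels are given in CPM, the count scaled to the library's total and its TMM factor from edgeR. At this depth 3 counts are worth 0.106 to 0.158 CPM by library total alone, without the TMM factor. This covers counting error only, and the lowest count of any of the 9 genes was 131. The targeted gene *Bdh2* was counted 203, 193 and 209 times in WT and 164, 136 and 129 times in knockout replicates 1 to 3, a log2 fold change of -0.79 (SE 0.12), so its transcript was lower but still present. Of 8 pluripotency genes checked as a label for the cells, 3 rose and 1 fell (background 41.7% of all genes called), and their summed level was 6679, 6752 and 6702 CPM in WT and 6759, 6567 and 6727 CPM in knockout ASCs. Transcripts of other cell types also moved. All 10 of a list of primitive endoderm genes rose, from a summed 122 to 129 CPM in WT to 394 to 449 CPM in knockout ASCs, and 5 of them (*Gata4*, *Gata6*, *Sox17*, *Sox7* and *Pdgfra*) are genes the study itself picked out in these libraries. Summed transcripts of 10 adult hepatocyte genes, led by *Alb*, were 475, 292 and 46.8 CPM in WT and 39.1, 139 and 27.7 CPM in knockout replicates 1 to 3. They differed among libraries of the same genotype and overlapped between genotypes in all 10 genes, although 8 of the 10 were called lower. Of 6 blood cell genes (summed 8.39 to 11.9 CPM in WT and 13.2 to 14.7 CPM in knockout ASCs) 2 were tested, of which *Cd68* rose and *Lyz2* was not called (-1.61, edgeR adjusted p = 0.119). The other four blood genes and *Lyz2* were low, at no more than 1.75 CPM for *Lyz2*, 0.515 for *Hba-a1*, 0.258 for *Ptprc*, 0.248 for *Tyrobp* and 0.0734 for *Hbb-bs* in any library, and all 5 overlapped between genotypes. Of 7 fibroblast genes (summed 26.6 to 32.5 CPM in WT and 21.6 to 27.2 CPM in knockout ASCs) 5 were tested, of which *Col1a1* fell and 0 rose. The part of any of these transcripts in the results below was not tested, except where a value with the hepatocyte transcripts as a covariate is given.

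Of the 9 genes 6 changed, and the estimated changes of the inhibitor *Socs3* and of the ligand *Lif* were the largest in size. *Lif*, *Lifr* and *Socs2* rose in knockout ASCs, while *Socs3*, *Jak1* and *Pim1* fell. *Stat3*, *Jak2* and *Il6st* did not pass the test. The changes were small, with log2 fold changes (knockout over WT) from -0.52 to 0.47, a median of 0.05 and a median size of 0.20. The same medians over all 16758 tested genes were -0.01 and 0.23. With a threshold of 0.05 on the adjusted p (quasi-likelihood test of edgeR, Benjamini-Hochberg adjustment across all tested genes), 6 of 9 stand against a background of 41.7% of all genes called, 3 higher against 21.0% and 3 lower against 20.8%. Scaled by library totals instead, 2 rose and 4 fell. In 7 of the 9 genes no knockout value fell within the WT range or the reverse, as in 52.4% of all tested genes. Calls for *Lif*, *Socs2* and *Socs3* held in all 14 other settings planned (other normalizations, filters and tools, a replicate block, a hepatocyte covariate, and each library left out), whereas those for *Lifr*, *Jak1* and *Pim1* did not. Because these are bulk libraries, fewer cells expressing a gene and less RNA per cell cannot be told apart.

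**Figure D1:**
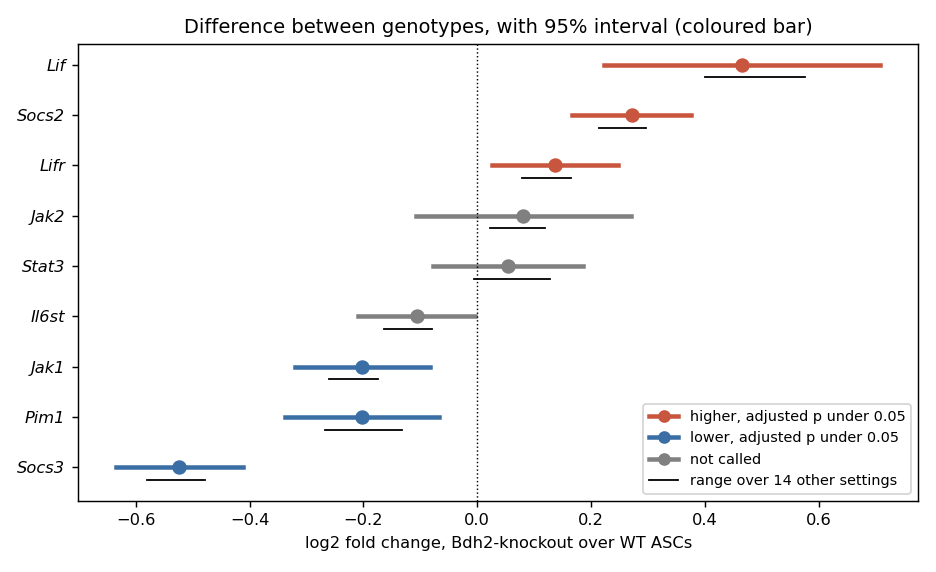
Log2 fold changes of the 9 genes (horizontal axis, knockout over WT; 1 gene per line), with points and coloured bars for edgeR's estimate and its 95% interval, and a thin black line for the range over 14 other settings. *Socs3* lies lowest at -0.52 and *Lif* highest at 0.47, and the intervals of *Jak2* and *Stat3* span 0.

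The ligand gene *Lif* (chromosome 11, 4257557 to 4272514, plus strand, GRCm38, the build of all coordinates here) was the lowest of the 9. Its normalized level was 6.75, 8.08 and 6.45 CPM in WT replicates 1 to 3 and 9.66, 10.5 and 9.18 CPM in knockout replicates 1 to 3. All knockout values were above all WT values. From 7.09 ± 0.865 CPM (SD, n = 3) in WT, *Lif* rose to 9.76 ± 0.642 CPM (SD, n = 3). The log2 fold change was 0.47 (SE 0.11, 95% interval 0.22 to 0.71, adjusted p = 0.00499 by the quasi-likelihood test of edgeR), or 38.1% higher. This is the cells' own transcript, measured in medium that already held LIF protein.

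Of the receptor genes, *Lifr* rose slightly and *Il6st* was not called. *Lifr* (chromosome 15, 7090614 to 7197489, plus strand) was at 74.5, 78.6 and 73.7 CPM in WT and 84.9, 83.1 and 81.1 CPM in knockout ASCs, with no overlap. Its log2 fold change was 0.14 (SE 0.05, 95% interval 0.03 to 0.25, adjusted p = 0.0469 in edgeR), close to the threshold. The call was lost in 9 of the 14 other settings, among them library totals in place of TMM factors (0.08, adjusted p = 0.232), the hepatocyte covariate (0.16, adjusted p = 0.0927) and each single library left out except WT replicate 2. Without WT replicate 1 or 3, or knockout replicate 1, 2 or 3, the edgeR adjusted p of *Lifr* was 0.111, 0.0788, 0.112, 0.0981 and 0.0601.

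*Il6st* (chromosome 13, 112464070 to 112510086, plus strand), for gp130, was at 103.0, 105.6 and 104.0 CPM in WT and 94.98, 97.4 and 98.0 CPM in knockout ASCs. These values did not overlap either, but the gene was not called (log2 fold change -0.11, SE 0.05, 95% interval -0.21 to -0.003, edgeR adjusted p = 0.0904). With library totals in place of TMM factors it was (-0.16, adjusted p = 0.0144). A ratio of the 2 chains within each library does not depend on the scaling between libraries. Per base of gene length, the ratio of *Lifr* to *Il6st* was 0.745, 0.767 and 0.729 in WT and 0.921, 0.879 and 0.852 in knockout ASCs. Every knockout library thus had more *Lifr* relative to *Il6st* than every WT library, with means of 0.747 ± 0.0190 and 0.884 ± 0.0346 (SD, n = 3 each). The two-sided exact permutation test gave p = 0.1, which is the lowest value possible with 3 against 3, and 0.1 after adjustment over 3 ratios.

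Of the kinase genes, *Jak1* fell and *Jak2* was not called. *Jak1* (chromosome 4, 101152367 to 101265282, minus strand), whose kinase is held to be the main one on gp130, was at 48.9, 53.9 and 54.0 CPM in WT and 47.0, 44.2 and 45.2 CPM in knockout ASCs. All knockout values were below all WT values, and *Jak1* fell by a log2 fold change of -0.20 (SE 0.06, 95% interval -0.32 to -0.08, edgeR adjusted p = 0.0102). Without knockout replicate 2 (-0.18, adjusted p = 0.0548) or knockout replicate 3 (-0.19, adjusted p = 0.0502) the call was lost.

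*Jak2* (chromosome 19, 29251828 to 29313080, plus strand) was at 10.8, 12.1 and 12.1 CPM in WT and 13.2, 11.99 and 11.9 CPM in knockout ASCs, with overlap. Its log2 fold change was 0.08 with a 95% interval from -0.11 to 0.27 (edgeR adjusted p = 0.486), so changes of either sign within that range were not resolved. The length-scaled ratio of *Jak2* to *Jak1* was 0.318, 0.323 and 0.322 in WT and 0.402, 0.390 and 0.378 in knockout ASCs. The 2 genotypes did not overlap in it (0.321 ± 0.00259 and 0.390 ± 0.0120, SD, n = 3 each; two-sided exact permutation test, p = 0.1, adjusted 0.1).

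**Figure D2:**
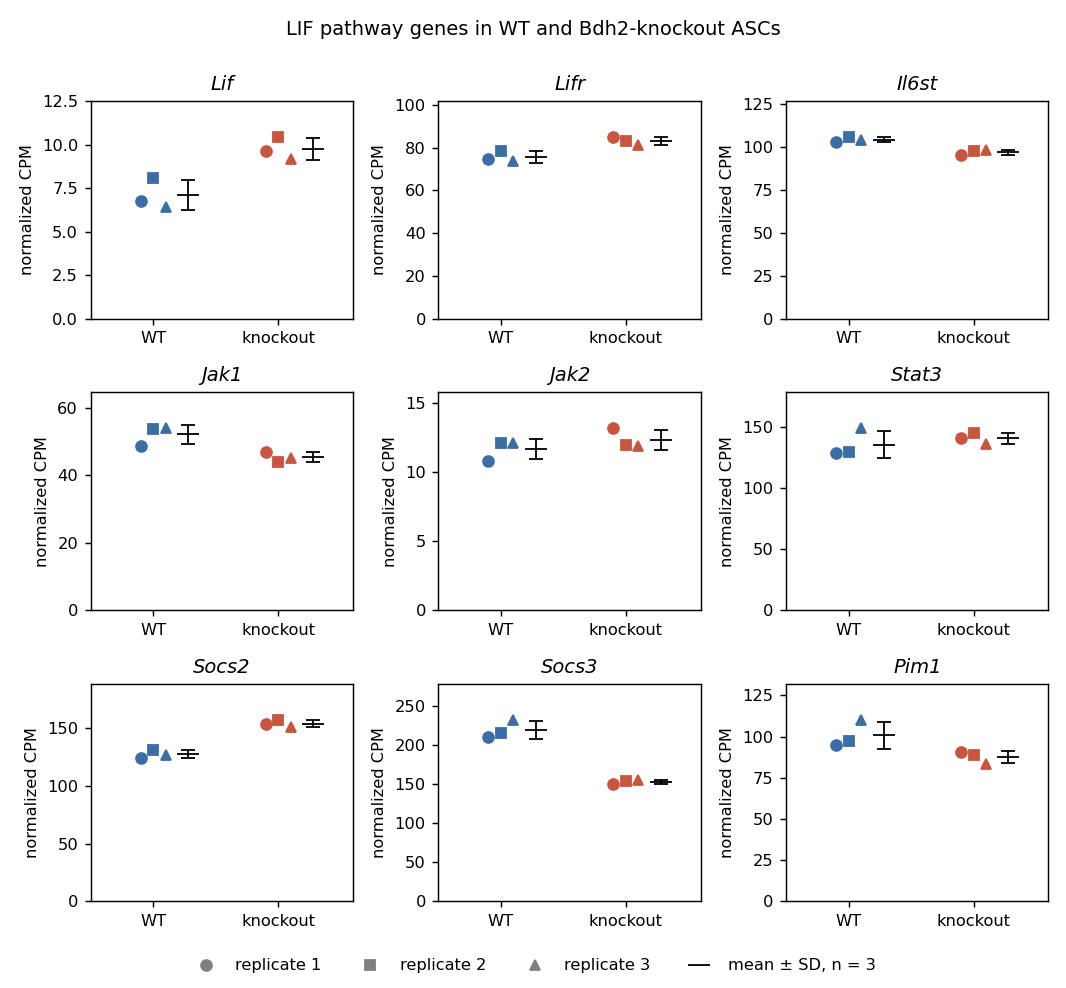
Normalized level (vertical axes, TMM-scaled CPM, each from 0) of each gene in the 3 WT and 3 knockout libraries; marker shapes are replicate numbers and black bars the mean ± SD. Values of the genotypes overlap only in *Jak2* and *Stat3*, and the widest gap is that of *Socs3*, with WT from 211.0 and knockout up to 155 CPM.

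*Stat3* (chromosome 11, 100885098 to 100939540, minus strand), the transcription factor of the pathway, was at 129, 130 and 149 CPM in WT and 142, 145 and 137 CPM in knockout ASCs. WT replicate 3 was above all 3 knockout libraries and the other two WT libraries were below them. The log2 fold change was 0.05 (SE 0.06, 95% interval -0.08 to 0.19, edgeR adjusted p = 0.508), and this sign turned with library totals (-0.004) and with the hepatocyte covariate (-0.01). Without WT replicate 3 the gene was called (0.13, adjusted p = 0.0433). Changes of either sign within the interval were not resolved by these 6 libraries.

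*Socs3* (chromosome 11, 117966079 to 117970047, minus strand), the feedback inhibitor, was at 211.0, 216 and 233 CPM in WT and 150, 154 and 155 CPM in knockout ASCs. The 3 knockout values lay within a narrow band far below the lowest WT value. From 219.8 ± 11.2 CPM (SD, n = 3) in WT, *Socs3* fell to 153.0 ± 2.78 CPM (SD, n = 3). The log2 fold change was -0.52 (SE 0.05, 95% interval -0.63 to -0.41, edgeR adjusted p = 6.58e-06). Its level in knockout ASCs was 0.696 times that in WT. The change ranged from -0.58 to -0.48 over the 14 other settings.

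The sequence before the start of *Socs3* is shown because STAT dimers are known to bind palindromes of the form TTCNNNGAA, and *Socs3* was the only member with that form in the 250 bases before its RefSeq start. Of the 9 genes, 8 had a RefSeq window and *Socs2* had none. The palindrome reads the same on both strands, and it occurred in 7.02% of all 32851 windows of this length, or in 8.13% of the 27025 genes that have one, against 1 of the 8 members. The match is a description, and binding was not tested. A stricter form, TTCCNGGAA, which the first form contains, was in 0.913% of windows and in 0 of the 8. The printed stretch is RefSeq sequence of GRCm38.p6, minus strand, chr11:117969452-117969616. It covers 165 bases, within the span of the gene but outside every GENCODE exon of *Socs3*. Capitals mark the match, which begins 154 bases before the RefSeq start.
Socs3: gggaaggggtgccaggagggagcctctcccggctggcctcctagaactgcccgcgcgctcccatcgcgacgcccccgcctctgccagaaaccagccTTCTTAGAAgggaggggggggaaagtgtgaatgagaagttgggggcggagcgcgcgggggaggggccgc

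*Socs2* (chromosome 10, 95385362 to 95417180, minus strand), a related inhibitor best known for damping growth hormone signalling through STAT5, moved the other way. It was at 124, 131 and 127 CPM in WT and 153.0, 157 and 151 CPM in knockout ASCs, with no overlap. From 127 ± 3.61 CPM it rose to 154 ± 3.15 CPM (SD, n = 3 each), by 0.27 on the log2 scale (SE 0.05, 95% interval 0.17 to 0.38, edgeR adjusted p = 6.73e-04). In the GENCODE transcripts 7.23% of the 50-base stretches of the longest *Socs2* transcript also occur in *Gm9847* or *Gm8000*. These were counted at most 5 times and 1 time in a library, against at least 2406 for *Socs2*. How reads with several matches were counted is not given, so these counts do not show whether *Socs2* lost reads.

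The inhibitors were also set against each other within each library. The ratio of *Socs3* to *Socs2* per base of gene length was 5.61, 5.43 and 6.05 in WT and 3.23, 3.23 and 3.40 in knockout ASCs. The knockout libraries lay well below the WT libraries (5.70 ± 0.319 and 3.29 ± 0.0980, SD, n = 3 each), a difference of -0.79 on the log2 scale (two-sided exact permutation test, p = 0.1, adjusted 0.1). It stayed between -0.83 and -0.75 when each library was left out in turn.

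**Figure D3:**
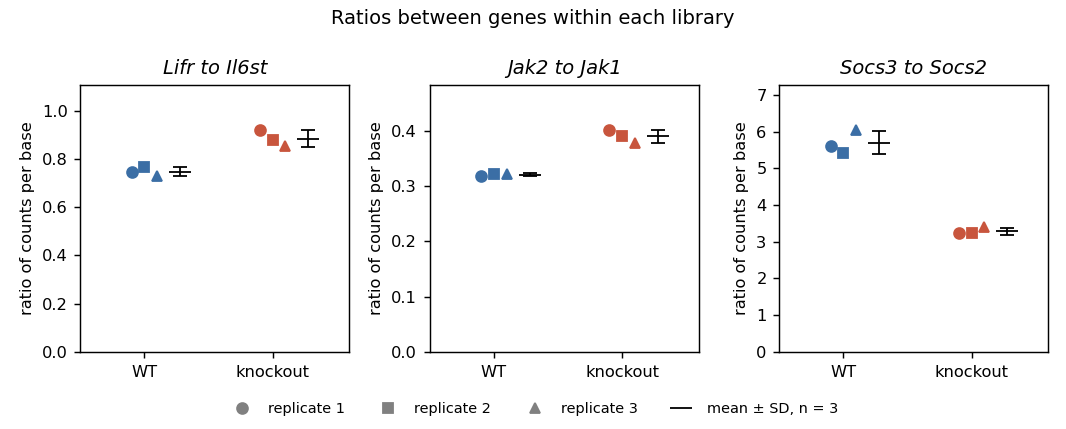
Ratios of 2 genes' counts per base of gene length within each library (vertical axes, from 0), in 3 WT and 3 knockout libraries, with black bars for the mean ± SD. Knockout libraries are higher for *Lifr* to *Il6st* and for *Jak2* to *Jak1* and lower for *Socs3* to *Socs2*, with no overlap in any of the 3.

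*Pim1* (chromosome 17, 29490812 to 29496111, plus strand), a serine/threonine kinase gene that STAT3 is known to induce, was at 95.2, 97.4 and 110 CPM in WT and 90.6, 89.0 and 83.6 CPM in knockout ASCs. All knockout values were below all WT values, by a small margin between the nearest. *Pim1* fell by a log2 fold change of -0.20 (SE 0.06, 95% interval -0.34 to -0.07, edgeR adjusted p = 0.0196). Without WT replicate 3 (-0.13, adjusted p = 0.0582) or knockout replicate 3 (-0.16, adjusted p = 0.114) the call was lost. In GENCODE, whose *Pim1* span differs from the deposited one, exons of the antisense gene *Gm26885* cover 14.5% of the exon bases of *Pim1*. The library kit did not mark strand, so reads there cannot be assigned to a gene by strand. *Gm26885* was counted 3 to 10 times per library, but how reads in the shared bases were counted is not given.

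In TPM, which also allows for gene length, the order of the levels was nearly the same in both genotypes. *Socs3* was the highest at 225 ± 13.2 TPM in WT and 155 ± 5.68 TPM in knockout ASCs, above 95.1% of all tested genes, and *Pim1* followed at 113 ± 10.02 and 97.4 ± 2.78 TPM (SD, n = 3 each). *Stat3* and *Socs2* came next and overlapped in WT (42.1 ± 3.92 and 39.4 ± 0.955 TPM). In knockout ASCs they were apart and in the opposite order, with *Socs2* at 47.2 ± 1.24 and *Stat3* at 43.4 ± 1.35 TPM. *Il6st* lay below them at 27.7 ± 0.294 and 25.6 ± 0.890 TPM. *Jak1* and *Lifr* overlapped in WT (21.3 ± 1.22 and 20.7 ± 0.555 TPM), and in knockout ASCs *Lifr* was the higher (22.6 ± 0.178 against 18.4 ± 0.362 TPM). *Jak2* and *Lif* were lowest, apart in WT (6.85 ± 0.445 and 4.81 ± 0.544 TPM) and overlapping in knockout ASCs (7.19 ± 0.281 and 6.58 ± 0.440 TPM). FPKM gave the same order. On the CPM scale, the coefficient of variation between replicates was highest for *Lif* in WT (12.2%) and lowest for *Il6st* in WT (1.23%).

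**Figure D4:**
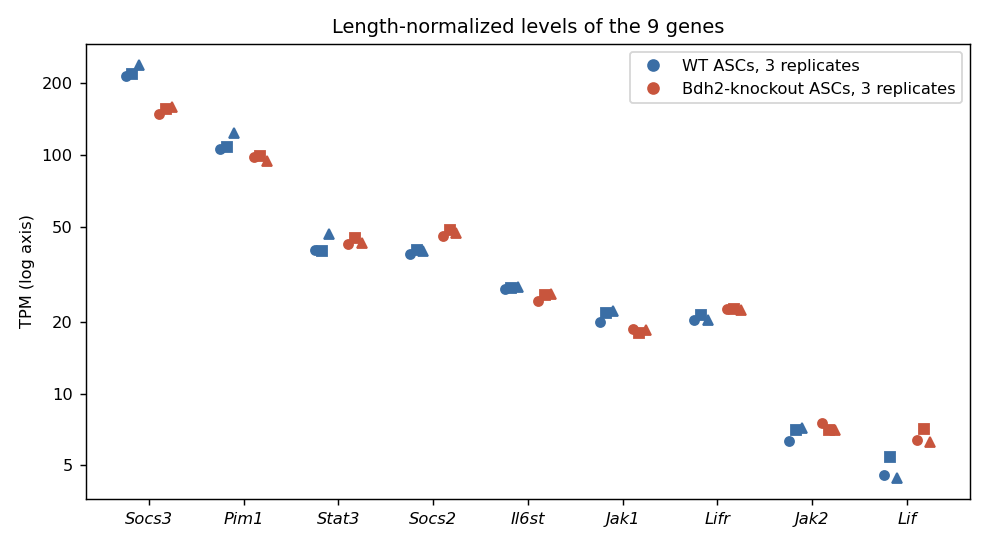
Length-normalized level (vertical axis, TPM, logarithmic) of the 9 genes in 3 WT and 3 knockout libraries, ordered by the WT mean. *Socs3* stands highest in both genotypes and *Lif* lowest, and the means of *Stat3* and *Socs2*, and of *Jak1* and *Lifr*, change places between them.

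Other genes of the pathway were read from lists compiled by hand, and 61 of their 63 genes could be tested. Of these 20 rose and 13 fell, 54.1% called against the background of 41.7%, and the median change was 0.01 (log2). The number that rose depended on the scaling and on the libraries. It was 12 (with 16 lower) with library totals, 10 (12 lower) with the hepatocyte covariate, 13 (11 lower) without WT replicate 2, and 12 (10 lower) without knockout replicate 2. Leaving out the 3 libraries richest in hepatocyte transcripts (WT replicates 1 and 2 and knockout replicate 2) gave 10 (13 lower). This setting, chosen after seeing the data, leaves WT replicate 3 as the lone WT library and assumes that it varies like the others. In it *Pim1*, for which WT replicate 3 was the highest of the 6 libraries, was at -0.34.

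Among 8 other cytokine genes that signal through gp130, 6 were tested. Of these, 0 were called by edgeR, against a background of 41.7% of all genes called. DESeq2 called 0 as well, and 0 had an unadjusted p under 0.05 in edgeR. All 6 had mean levels of at most 4.56 CPM in either genotype, so smaller changes may have gone undetected. *Ctf1*, for cardiotrophin-1, was at 4.56 CPM in WT and 3.67 CPM in knockout ASCs, and *Osm*, for oncostatin M, at 2.29 and 1.85 CPM (edgeR adjusted p = 0.177 and 0.261). *Il6* and *Il27* had too few counts to test. The median log2 fold change of the 6 was -0.31, against -0.01 over all genes, and was -0.18 with the hepatocyte covariate and -0.22 without the 3 hepatocyte-rich libraries.

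The receptor chains that pair with gp130 for other cytokines had larger estimated changes than *Lifr* and *Il6st*, a difference that was not tested. Of 5 tested, 2 rose and 2 fell (background 21.0% higher and 20.8% lower). *Cntfr*, for the ciliary neurotrophic factor receptor, which works together with gp130 and the LIF receptor, was at 5.67, 5.30 and 5.14 CPM in WT and 14.9, 13.6 and 13.5 CPM in knockout ASCs. It rose by a log2 fold change of 1.39 (SE 0.10, edgeR adjusted p = 4.35e-07). *Il6ra*, for the interleukin-6 receptor, rose as well (12.5 to 17.6 CPM, 0.50, SE 0.08, edgeR adjusted p = 3.99e-04). *Il27ra* fell (2.82 to 1.62 CPM, -0.80, SE 0.20, edgeR adjusted p = 0.00536). *Il11ra1*, whose reads may be shared with near copies of the gene, fell too (4.82 to 3.40 CPM, -0.51, edgeR adjusted p = 0.0160), but not without WT replicate 3 (adjusted p = 0.0570) or knockout replicate 2 (0.0694). *Osmr*, for the oncostatin M receptor, was at 1.12 and 1.73 CPM (0.63, adjusted p = 0.0516), and was called without knockout replicate 3 (0.76, adjusted p = 0.0412) and with median-of-ratios factors (0.64, adjusted p = 0.0496).

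Of 8 other JAK and STAT genes, 5 fell and 0 rose, all 5 of them STATs, against a background of 20.8% of all genes lower, and the median log2 fold change was -0.45. *Stat2*, which acts in interferon signalling, was at 38.7, 35.3 and 37.9 CPM in WT and 21.7, 22.2 and 22.4 CPM in knockout ASCs. It fell by a log2 fold change of -0.76 (SE 0.06, edgeR adjusted p = 1.11e-06). The adjacent paralogs *Stat5b* (19.5 to 12.3 CPM, -0.66, adjusted p = 5.04e-05) and *Stat5a* (8.06 to 5.25 CPM, -0.63, adjusted p = 0.00446), which carry growth hormone and prolactin signals, fell as well. *Stat4* fell from 3.22 to 2.14 CPM (-0.59, adjusted p = 0.0155), a call lost without WT replicate 1 (adjusted p = 0.0543), with the hepatocyte covariate (0.0966), and without the 3 hepatocyte-rich libraries (0.243). The fifth was *Stat6*, named after its values were seen (39.2 to 31.4 CPM, -0.32). *Jak3* (52.8 and 50.5 CPM) and *Tyk2* (44.8 and 44.3 CPM) had edgeR adjusted p of 0.416 and 0.830. Without the 3 hepatocyte-rich libraries the log2 fold change of *Jak3* was -0.19. That setting keeps WT replicate 3 as the only WT library, and this was the highest library for *Jak3* at 57.15 CPM.

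Of 14 other inhibitors of the pathway, 2 rose and 2 fell, 28.57% called against 41.7% of all genes, with a median of -0.01. The count was 2 higher and 1 lower with DESeq2, median-of-ratios factors or limma-voom and without WT replicate 2, 1 and 1 with the replicate block and without WT replicate 1 or knockout replicate 2 or 3, 1 and 3 with library totals, and 4 and 2 without WT replicate 3. *Ptpn1*, for a phosphatase that removes phosphate from JAKs, rose from 47.0 to 57.0 CPM (0.28, SE 0.05, edgeR adjusted p = 0.00131), and *Socs7* fell from 47.4 to 40.6 CPM (-0.23, SE 0.06, adjusted p = 0.00743). *Socs4* (48.4 to 43.1 CPM, -0.17, adjusted p = 0.0480) and *Pias2* (159 to 176 CPM, 0.15, adjusted p = 0.0243) were called as well. Neither call held throughout. *Socs4* lost it without WT replicate 1 or 2 or knockout replicate 2 or 3 (adjusted p from 0.0568 to 0.223), with DESeq2 (0.0817), median-of-ratios factors (0.0513), limma-voom (0.0569), no filter (0.0637), the replicate block (0.0735) and the hepatocyte covariate (0.0856), and without the 3 hepatocyte-rich libraries (-0.08, adjusted p = 0.434). *Pias2* lost it without WT replicate 1 or knockout replicate 2 or 3 (0.0643 to 0.0743), with library totals (0.139), the replicate block (0.0543) and the hepatocyte covariate (0.151), and without the 3 hepatocyte-rich libraries (0.10, adjusted p = 0.145). *Pias4* and *Ptpn2* had adjusted p of 0.613 and 0.524.

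Genes known as STAT3 targets did not move as one. Of 12 besides *Socs3* and *Pim1*, 6 rose and 2 fell, with a median of 0.08 (background 41.7% of all genes called, 21.0% higher and 20.8% lower). The count was 3 higher and 3 lower with library totals or the hepatocyte covariate, 3 and 1 without WT replicate 2 or without knockout replicate 2, and 3 and 2, with a median of -0.03, without the 3 hepatocyte-rich libraries. *Myc*, for a growth-promoting transcription factor, was at 35.6, 32.3 and 40.9 CPM in WT and 62.1, 71.4 and 66.5 CPM in knockout ASCs, a rise of 0.87 (SE 0.08, edgeR adjusted p = 3.12e-06). *Mcl1*, for a protein that blocks apoptosis, rose from 433 to 582 CPM (0.43, SE 0.05, adjusted p = 1.45e-05), and *Icam1*, for an adhesion molecule, from 38.3 to 49.8 CPM (0.38, SE 0.06, adjusted p = 5.03e-04). *Cebpb*, for a transcription factor of acute phase and fat cell genes, fell from 10.3 to 5.55 CPM (-0.89, SE 0.13, adjusted p = 1.32e-04). These 4 calls held in every setting run.

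*Klf4*, *Klf5*, *Tfcp2l1* and *Gbx2* of this list encode transcription factors known for sustaining self-renewal downstream of LIF. *Klf5* was not called (268 and 260.4 CPM, -0.04, edgeR adjusted p = 0.606). The other 3, which were picked out after their values were seen, rose by 0.18 for *Klf4*, 0.17 for *Tfcp2l1* and 0.27 for *Gbx2* (edgeR adjusted p = 0.0297, 0.0224 and 0.0212). All 3 calls were lost with library totals (adjusted p = 0.102, 0.101 and 0.0557), with the hepatocyte covariate (0.320, 0.133 and 0.0857) and without knockout replicate 2 (0.0575, 0.0884 and 0.0797) or WT replicate 2 (0.0891, 0.0917 and 0.0904). Without the 3 hepatocyte-rich libraries the log2 fold changes shrank to 0.047, 0.040 and 0.045 (edgeR adjusted p = 0.505, 0.553 and 0.679). *Klf4* was also lost without WT replicate 1 (0.117) or knockout replicate 1 (0.0815), and *Tfcp2l1* without WT replicate 1 (0.0619). *Pim3*, a relative of *Pim1*, was at 191.4 and 191.5 CPM (edgeR adjusted p = 0.993).

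The receptor also feeds a second branch, through the phosphatase SHP2 to the RAS-ERK kinases and PI3K. Of 16 genes of this branch, 10 rose and 2 fell, with a median of 0.20 (background 41.7% of all genes called, 21.0% higher and 20.8% lower). This count was 6 higher and 3 lower with library totals, 4 and 1 with the hepatocyte covariate, 4 and 2 without the 3 hepatocyte-rich libraries, and 6 and 2 without WT replicate 2 or without knockout replicate 2. *Map2k2*, for the kinase MEK2, rose from 108 to 134 CPM (0.30, SE 0.06, edgeR adjusted p = 0.00225), but was not called without the 3 hepatocyte-rich libraries (0.13, adjusted p = 0.0728). *Hras*, a RAS gene, rose from 52.5 to 64.5 CPM (0.30, SE 0.06, adjusted p = 0.00102), and by 0.18 without those 3 libraries (adjusted p = 0.0386). *Gab1*, for a scaffold that binds SHP2, rose from 244.6 to 294.0 CPM (0.27, SE 0.05, adjusted p = 6.03e-04). *Mapk3*, for ERK1, fell from 89.6 to 73.9 CPM (-0.28, SE 0.05, adjusted p = 9.91e-04). *Ptpn11*, for SHP2 itself, was at 141.6 and 141.7 CPM and *Map2k1*, for MEK1, at 149.5 and 152.4 CPM, with adjusted p of 0.987 and 0.726.

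**Figure D5:**
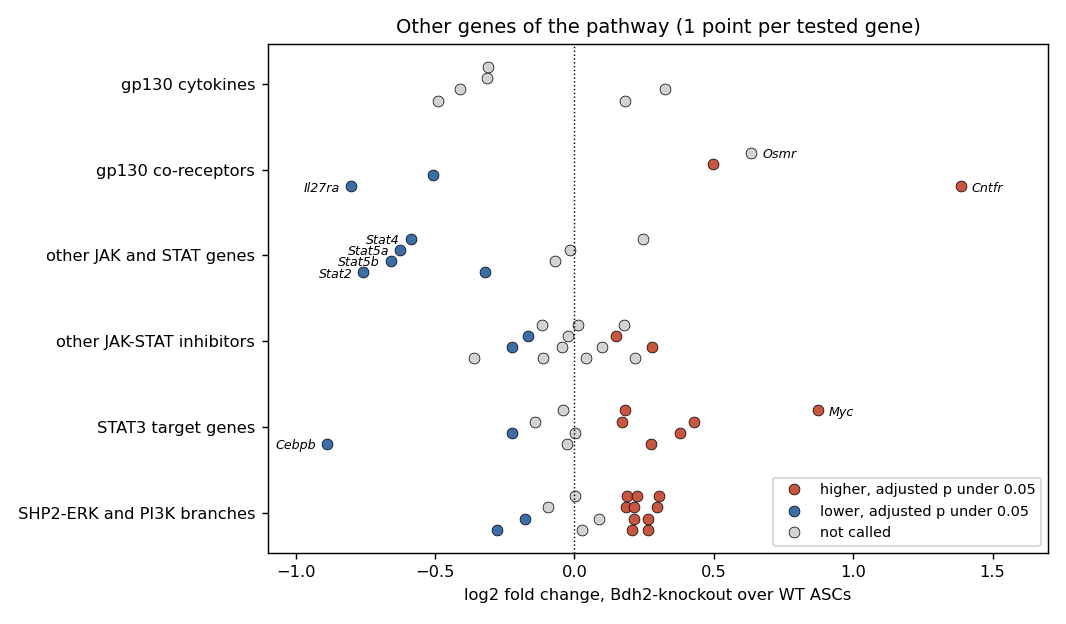
Log2 fold changes (horizontal axis, knockout over WT) of the 61 tested genes of 6 lists, 1 point per gene, coloured by whether edgeR's adjusted p was under 0.05; vertical offsets within a list only separate points. All called STATs lie left of 0, and *Cntfr* at 1.39 lies farthest to the right.

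Among 10939 tested genes with a mean of at least 5 CPM, those nearest to a member were found by the root mean square difference of log2 levels over the 6 libraries, after centring each gene. Nearest to *Socs3* were *Abtb1* (0.0141), *Hspb11* (0.0188) and *Kctd13* (0.0233). Nearest to *Stat3* were *Mrpl2* (0.0176), *Pias4* (0.0182) and *Smad3* (0.0189), and nearest to *Lifr* were *Smarce1* (0.00690), *Faf2* (0.0129) and *Mecr* (0.0150). With 6 libraries, this likeness is a description only.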

How the data were processed

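RNA of 6 ASC libraries was sequenced by the authors on an Illumina HiSeq instrument from TruSeq RNA kits, which do not mark strand. They trimmed and filtered reads, mapped them to GRCm38 with HISAT2 2.0.5 and counted them with FeatureCounts (aligner version from the submitters' processing notes), and the deposited values are raw counts per gene. The annotation release, the strand setting and the treatment of reads with several matches are not given in the sources used here.

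The counts were tested with edgeR 4.0.16 in R 4.3.3 (glmQLFit and glmQLFTest after TMM scaling and the filterByExpr filter, with genotype as the factor and 95% intervals). P-values were adjusted by Benjamini and Hochberg's method across the 16758 genes left, at a threshold of 0.05. TPM, FPKM and ratios came from counts and the listed gene lengths. Ratios were compared by a two-sided exact permutation test. Sequences and exons came from RefSeq and GENCODE for GRCm38, where 8 of the 9 spans were identical to the deposited ones (*Pim1* differed at both ends). Alternatives were DESeq2 1.42.0, median-of-ratios factors, library totals, limma-voom (limma 3.58.1), no filter, a mean count of at least 50, a replicate block, a hepatocyte score as covariate (the mean centred log2 level of the 10 hepatocyte genes) and each library left out. The edgeR, DESeq2 and limma-voom fits were tested on simulated data.

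The 9 genes and all lists were chosen with earlier results of these data known. Named are the 9 genes, *Bdh2*, per list up to 4 called genes of largest change and the 2 highest uncalled ones, and the 3 genes nearest in profile to each of *Lifr*, *Stat3* and *Socs3*. Each library was treated as 1 sample. Genes named outside this rule are *Stat6*, *Klf4*, *Tfcp2l1* and *Gbx2*, picked out after their values were seen, *Il6* and *Il27*, which were not tested, cell type markers and genes that overlap or share sequence with a member. 1 gene was left out of the lists and is not reported here.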

Additional observations from a re-analysis of the deposited data

How the results depend on the processing

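Over 14 planned settings, the calls of *Lif*, *Socs2* and *Socs3* and the missing call of *Jak2* did not change, and *Lifr* lost its call in 9, *Jak1* and *Pim1* in 2 each. The cause of these changes was not tested. Library totals without TMM moved the share of called genes that rose from 50.29% to 38.03%, moved the number of pathway genes that rose from 20 to 12, and turned the sign of uncalled genes, namely *Stat3* (-0.00432), *Pias4* (-0.0164), *Pim3* (-0.0571), *Map2k1* (-0.0308) and *Ptpn11* (-0.0570). A mean count of at least 50 turned *Pim3* (-0.0109) and *Ptpn11* (-0.0108). The hepatocyte covariate left 10 pathway genes higher and turned *Stat3* (-0.0059), *Pim3* (-0.0155) and *Map2k1* (-0.0506). Without the 3 hepatocyte-rich libraries, a setting chosen after seeing the data, 10 were higher, and *Stat3*, *Pias4* and *Pim3* (-0.103, -0.104 and -0.105), *Map2k1* (-0.0695) and *Ptpn11* (-0.0088) turned.

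With each library left out in turn, the number of members that rose was 2 to 3, that of members that fell 1 to 3 (1 without knockout replicate 3), and that of pathway genes that rose 12 to 22. Uncalled genes changed sign within their ranges, which were -0.0411 to 0.0431 for *Pim3*, -0.0226 to 0.0493 for *Ptpn11*, -0.0150 to 0.0845 for *Map2k1*, -0.0629 to 0.0295 for *Tyk2* and -0.112 to 0.00304 for *Klf5*.

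Libraries with the same replicate number deviated from their group means with correlations of -0.158, 0.0452 and 0.206 (mean 0.0309, against -0.0165 for different numbers), and 3 of 6 libraries correlated best with their own number, so the numbers are not taken to pair samples. With this replicate block 6452 genes were called against 6996, and of the members only *Lifr* lost its call (0.14, edgeR adjusted p = 0.0920).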
